A study of Mus musculus with 10 samples.

Results

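The nuclear genes for the subunits of oxidative phosphorylation were examined in developing mouse testis. The set was every gene of the deposited count table with a symbol beginning Nduf followed by a, b, c, s or v, Cox followed by 4 to 8 and a, b or c, Uqcr, or Atp5, without the Ndufaf assembly factors. This gave 83 of 25239 genes: 40 of complex I, 8 of complex III, 18 of complex IV (with Ndufa4, a complex IV subunit despite its symbol) and 17 of ATP synthase. Ndufa4l2, a homologue of Ndufa4, was counted with complex I by its symbol. The table held 0 genes of the mitochondrial chromosome, so the subunits encoded there were not analysed here, and Cox4i1 and Cox4i2 fall outside the symbol pattern.

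Testes of C57BL/6 mice were profiled by bulk RNA-seq on postnatal days 4 (P4) and 7 (P7), with 2 wild-type (WT) libraries and 3 libraries labelled as a conditional knockout (cKO) at each stage. The genotype given for the cKO libraries is Lsm7-flfl-stra8, that is, floxed alleles of Lsm7, which encodes an LSm protein bound to the U6 RNA of the spliceosome, with Stra8 named as the driver, a gene switched on in differentiating germ cells. Labels call the tissue testis and the cell type germ cell, RNA was taken from testis, and no sorting step is described. Nothing in the labels says whether libraries came from separate animals, so p-values here reflect sample-to-sample spread that may be technical only. In bulk RNA, fewer cells of a type and less RNA per cell cannot be told apart.

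Libraries held 28.8 to 41.8 M counted reads, and 0.585% to 0.881% of them fell on the 83 genes. The P7 WT libraries 1 and 2 differed little more than counting noise allows (a chi-square of 1.98 per degree of freedom, where other pairs within a group had 22.24 to 115.81) and were summed and counted as 1 sample, which left 9 samples. Lsm7, counted over all its exons, had 36.2 and 25.7 counts per M reads (CPM) in P4 WT, whereas the P4 samples labelled cKO had 45, 50.5 and 43.6 CPM. Its P7 values were 33.3 CPM in WT and 45.2, 26 and 20.3 CPM in the samples labelled cKO. The counts of Lsm7 were thus not lower in the P4 libraries labelled cKO, and every direction below is between libraries so labelled. Sertoli cell markers summed to 3530 and 5320 CPM in P4 WT, against 324 and 437 CPM for germ cell markers, so RNA of somatic cells made up part of every sample.

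Oxidative phosphorylation makes most of the ATP of a respiring cell. Complex I takes electrons from NADH, complex III passes them to cytochrome c, complex IV hands them to oxygen, and ATP synthase lets the pumped protons back through its rotor to make ATP. Several complex IV subunits come in tissue forms: Cox6b2, Cox7b2 and Cox8c are known as testis or germ cell forms, and Cox6a2, Cox7a1 and Cox8b as forms of striated muscle or brown fat. Many of the general genes are known targets of NRF1, of the ETS factor GABP and of YY1.

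Promoter sequences of RefSeq (GRCm38.p6, 250 bases before to 50 after the start) were matched for 66 of the 83 genes. The letters searched on both strands were GCGCANGCG for NRF1, CCGGAAG for ETS factors and AAGATGGCG for YY1. AAG ends the ETS letters and starts those of YY1, so matches of that pair can overlap, and each gene was counted once per motif. NRF1 letters stood in 18 of the 66 promoters (27.3%), against 12.1% of the 14334 tested genes with a promoter and 7.03% of all 27025 promoter genes. For ETS the numbers were 15 of 66 (22.7%), 16.0% and 9.93%, and for YY1 7 of 66 (10.6%), 2.66% and 1.64%. At least 1 of the 3 stood in 33 promoters (50%), against 27% of tested genes. Of the 24 promoters of genes higher in cKO at P4, 9 held the NRF1 letters, 5 the ETS letters and 2 the YY1 letters, and of the 40 promoters of genes tested and not called the counts were 8, 10 and 5. A match is a description of these letters and not a measured site. The stretches below, free of annotated exons, show motifs in 3 general genes that changed (capitals mark the NRF1 or ETS letters), and then the general Cox7b beside its testis form Cox7b2, where no match stood in the bases shown. Ndufa11 (chr17:56717686-56717761, plus strand) carries overlapping NRF1 matches on both strands. Uqcr11 (chr10:80406831-80406941, minus strand) carries the ETS letters 66 bases before its start, and an NRF1 match elsewhere in its promoter. Atp5l (chr9:44920892-44920992, minus strand) carries NRF1 and ETS matches 241 and 212 bases before its start. Cox7b lies at chrX:106015550-106015699 (plus strand) and Cox7b2 at chr5:71548206-71548355 (minus strand).
Ndufa11: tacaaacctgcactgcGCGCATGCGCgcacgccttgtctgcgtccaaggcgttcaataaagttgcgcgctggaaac
Uqcr11: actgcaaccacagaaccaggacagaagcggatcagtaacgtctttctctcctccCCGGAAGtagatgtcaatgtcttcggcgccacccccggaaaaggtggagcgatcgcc
Atp5l: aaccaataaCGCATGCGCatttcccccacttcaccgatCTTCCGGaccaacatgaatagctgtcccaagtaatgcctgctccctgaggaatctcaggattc
Cox7b: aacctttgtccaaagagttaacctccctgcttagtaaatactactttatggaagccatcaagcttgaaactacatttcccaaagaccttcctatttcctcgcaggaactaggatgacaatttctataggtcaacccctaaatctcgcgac
Cox7b2: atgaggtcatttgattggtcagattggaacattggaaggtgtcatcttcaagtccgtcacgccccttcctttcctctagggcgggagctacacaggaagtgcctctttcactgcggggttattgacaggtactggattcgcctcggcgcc

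Levels per exon length (reads per kilobase of exon and M reads, RPKM) ran over a wide range within the set. Cox6c and Cox7c, small structural subunits of complex IV, were highest, at 390 and 379 RPKM as the mean of the 4 group means. The general forms Cox6a1, Cox6b1 and Cox8a stood 7th, 9th and 17th of 83. Cox6b2 stood 61st at 52.4 RPKM, Cox7a1 73rd at 11.3 RPKM, Cox7b2 74th at 10.9 RPKM, Cox6a2 76th at 2.08 RPKM and Cox8c 77th at 1.97 RPKM. Cox7a1 and Cox7b2, neighbours in this order, did not differ beyond their spread in P7 cKO, at 17.1 ± 9.58 RPKM and 17.5 ± 2.08 RPKM (SD, n = 3). Ndufs5 had 0 reads in all 10 libraries, and 95.1% of its exon bases also belong to the gene listed as Ndufs5-ps, so its level cannot be read from this table. Exons of 12 other members share bases with a neighbouring gene, most in Ndufa13 (29.6%, with Tssk6), and as no strand setting is given, such reads cannot be assigned with certainty. After a filter on low counts, 80 members were tested. The others were Cox8b, Ndufa11b and Ndufs5, at or near 0 reads.

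P7 cKO library 1 stood apart from libraries 2 and 3 of its group (chi-square per degree of freedom 110.5 and 115.81, against 22.24 between those 2). The P4 WT libraries differed less, with a value of 57.7, inside the range of 35.07 to 66.79 among pairs of P4 cKO libraries. For P4 WT, 2 libraries cannot show which of them departs. The differences of P4 WT library 1 from P4 WT library 2 correlated over members with those of P7 cKO library 1 from the other P7 cKO libraries. Not every member went the same way in both, as Atp5md was at -0.43 and 0.75 (log2). Across the 80 members the differences had r = 0.75 (0.80 over 72 members with a mean of 10 CPM or more, and 0.54 over 10561 genes at that level), a description over genes that share these 5 libraries. P4 WT library 1 and P7 cKO library 1 were both lower than the rest of their group by over 0.5 (log2) for 6 members, Atp5b, Atp5g3, Atp5pb, Cox5a, Cox7a2l and Ndufa4. Both were higher by over 0.3 for 14 members, among them Ndufa5, Ndufb4, Ndufa13 and Cox7c. Ndufa4 was lower by 1.12 in the P4 WT library (-1.12) and by 1.22 in the P7 cKO library (-1.22), whereas Ndufb4 was higher by 0.60 and 1.47. The differences correlated with exon length at r = -0.20 and -0.35 and with GC content at 0.28 and 0.04 over the 80 members.

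**Figure D1:**
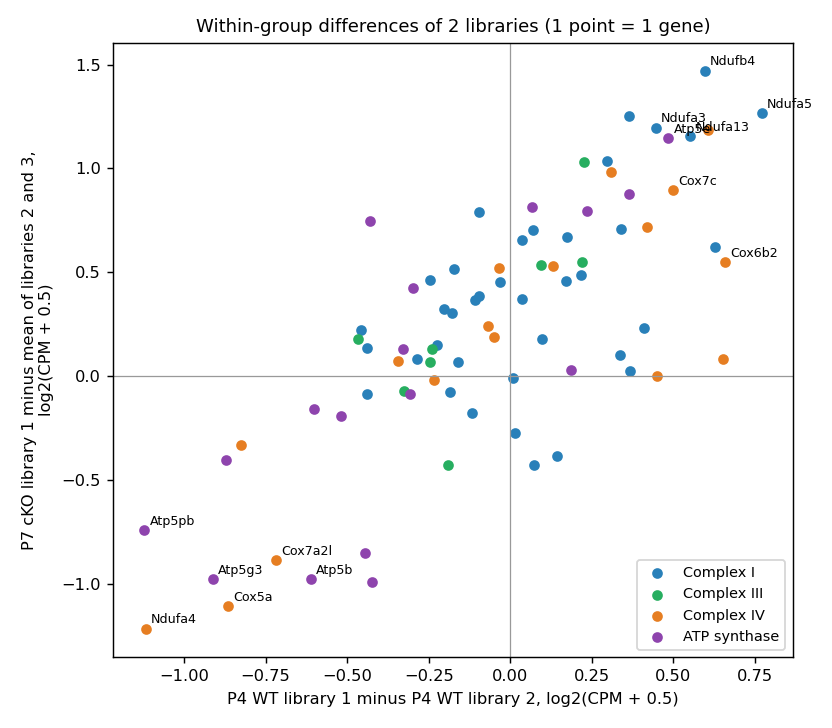
Each point is 1 of the 80 tested genes, coloured by complex. The x axis gives P4 WT library 1 minus library 2 and the y axis P7 cKO library 1 minus the mean of libraries 2 and 3, both in log2(CPM + 0.5). Genes such as Ndufa4 and Atp5g3 lie low on both axes and genes such as Ndufb4 and Ndufa5 high on both (r = 0.75).

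At P4 the genes of all 4 complexes stood higher in the libraries labelled cKO. Summed over the 83 genes, the level was 5734 and 6059 CPM in WT and 8333, 8943 and 9521 CPM in cKO, with no overlap. Of the 80 tested, 26 were higher and 0 lower (32.5% higher) by edgeR's quasi-likelihood test at a Benjamini-Hochberg adjusted p under 0.05, where 4.84% of all 18419 tested genes were higher and 4.13% lower. The median log2 fold change of the members was 0.62 (quartiles 0.32 and 0.91) and that of all tested genes 0.00, and 73 of 80 members had a positive value. Every cKO sample lay above every WT sample for 59 of 80 members (73.8%), against 24.1% of all tested genes.

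The count was spread over the machinery. Complex I had 13 of 38 tested members higher, complex III 3 of 8, complex IV 4 of 17 and ATP synthase 6 of 17, with medians of 0.58, 0.69, 0.62 and 0.76. In complex I the 3 smallest p-values belonged to accessory subunits. Ndufb9, of the membrane arm, had 40.0 and 45.5 CPM in WT and 77.3, 86.7 and 104 CPM in cKO (log2 fold change 1.06, SE 0.19, edgeR adjusted p 0.0158). Ndufa2, of the matrix arm, had 32.4 and 34.7 CPM in WT and 71.2, 72.0 and 81.5 CPM in cKO (1.16, SE 0.21, edgeR adjusted p 0.0165). Ndufb11, also of the membrane arm, had 53.9 and 53.3 CPM in WT and 94.2, 101 and 107 CPM in cKO (0.91, SE 0.17, edgeR adjusted p 0.0178). All cKO values of these 3 genes lay above all WT values. Among core subunits of complex I, Ndufv1 (0.67, edgeR adjusted p 0.047) and Ndufs3 (0.61, 0.0488) were higher. Ndufs7 (0.37, 0.221), Ndufs8 (0.16, 0.638), Ndufv2 (-0.03, 0.924) and Ndufs1 (-0.26, 0.304) did not pass.

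In complex III the acidic hinge subunit Uqcrh had 54.6 and 68.5 CPM in WT and 120, 152 and 168 CPM in cKO (log2 fold change 1.25, SE 0.21, edgeR adjusted p 0.0136, the smallest p of the set at this stage). Uqcr10, a small subunit, had 25.8 and 30.5 CPM in WT and 54.1, 51.3 and 62.2 CPM in cKO (0.99, SE 0.20, 0.021). The core protein Uqcrc1 had 89.6 and 102 CPM in WT and 183, 154 and 163 CPM in cKO (0.79, SE 0.19, 0.0309). The groups did not overlap for any of the 3. Uqcrb, which helps to form the quinone site, did not pass, at 123 and 105 CPM in WT and 94.1, 125 and 114 CPM in cKO (-0.04, SE 0.29, 0.939).

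In complex IV the calls were Cox6a1, Cox7a2, Cox7a2l and Cox5a. Cox6a1, the general form of subunit 6a, had 77.8 and 98.9 CPM in WT and 178, 180.2 and 168 CPM in cKO (log2 fold change 0.99, SE 0.17, edgeR adjusted p 0.0147). Cox7a2, the general form of subunit 7a, had 25.4 and 45.5 CPM in WT and 73.3, 76.9 and 96.3 CPM in cKO (1.21, SE 0.26, 0.0241). Cox7a2l had 82.4 and 136 CPM in WT and 196, 229 and 256 CPM in cKO (1.06, SE 0.30, 0.0476). For Cox7a2 and Cox7a2l the WT samples lay far apart, with WT library 1 the lower. Cox5a, which shares that trait, had 17.8 and 32.8 CPM in WT and 59.2, 56.8 and 74.9 CPM in cKO (1.33, SE 0.37, 0.0483). Without WT library 1 the fold changes were 0.85 for Cox7a2, 0.74 for Cox7a2l and 0.96 for Cox5a, with edgeR adjusted p-values of 0.249, 0.366 and 0.357. In ATP synthase, Atp5k (subunit e, of the dimer interface) had 8.37 and 10.4 CPM in WT and 20.8, 24 and 32.2 CPM in cKO (1.45, SE 0.31, 0.0224), the highest value of the set. Atp5l (subunit g, its partner) had 24.6 and 45.4 CPM in WT and 61.3, 82.4 and 88.5 CPM in cKO (1.15, SE 0.28, 0.0327). Atp5o, the stalk subunit also called OSCP, had 117 and 168 CPM in WT and 242, 246 and 237 CPM in cKO (0.76, SE 0.19, 0.034). Of the Atp5g genes, which encode the same mature rotor subunit, Atp5g2 (1.09, 0.044) and Atp5g3 (1.32, 0.0438) were higher and Atp5g1 (0.63, 0.0546) narrowly missed the threshold. Without WT library 1 the values were 0.77 for Atp5l, 0.52 for Atp5o, 0.88 for Atp5g2 and 0.93 for Atp5g3, and none passed. The lowest value belonged to Ndufb4c, a retrocopy with at most 0.425 CPM in any sample (-1.30, SE 0.92, 0.366).

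**Figure D2:**
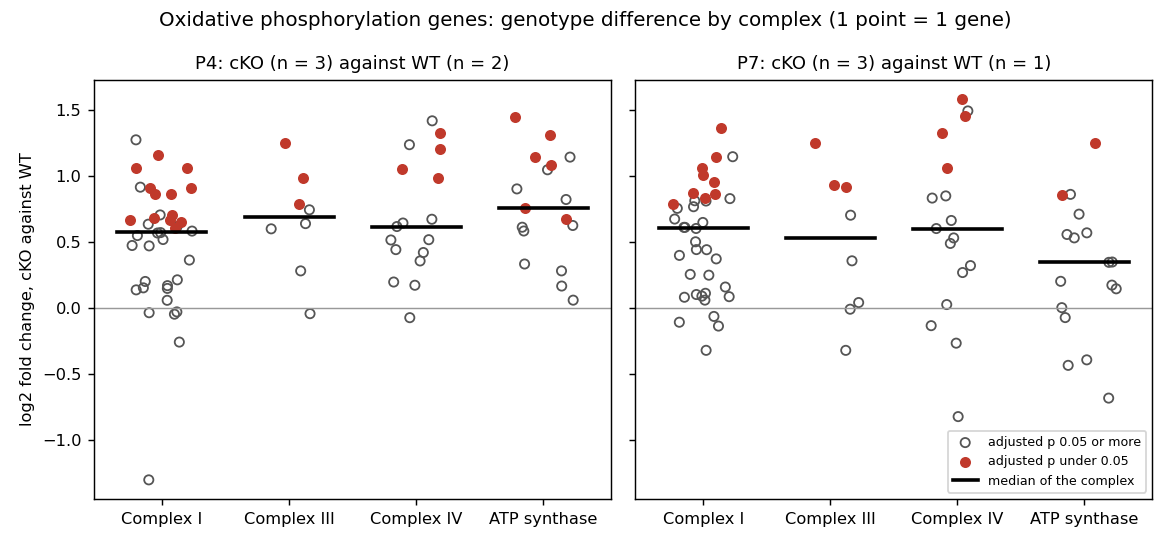
Each point is 1 tested gene and the y axis is its log2 fold change, cKO against WT, at P4 (left) and P7 (right). Red points passed an adjusted p of 0.05 and black bars are medians: at P4 all 26 red points lie above 0 and the medians run from 0.58 to 0.76, and at P7 18 points are red.

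The P4 calls depended on single libraries. Leaving out WT library 1, cKO library 2 or cKO library 3 of P4, edgeR called 0 members, and over all tested genes it then called 0%, 0.0217% and 0.0109% higher. At an unadjusted p under 0.05 the members were still 33, 42 and 46 of 80, all higher, and the median stayed between 0.57 and 0.63. How many of all tested genes had such an unadjusted p in those fits is not given here, so these member counts have no background. Without P7 cKO library 1, which enters only through the shared spread, the count of calls was 47 (12.2% of all genes higher). With library totals in place of composition factors it was 13 (2.87% higher and 8.38% lower among all genes), as that scaling moved the median of all genes to -0.16. Sertoli cell markers moved in the same direction at P4, with sums of 3530 and 5320 CPM in WT against 7340, 6780 and 7620 CPM in cKO (4 of 12 higher, 0 lower, none at 0 reads). Peritubular and stromal markers summed to 7050 and 8480 CPM against 8200, 11500 and 11500 CPM (3 of 10 higher), Leydig cell markers to 1980 and 1720 CPM against 1910, 2070 and 1930 CPM (3 of 10 higher), and macrophage markers to 61.8 and 66.8 CPM against 77.4, 114 and 133 CPM (3 of 8 higher). Germ cell markers summed to 324 and 437 CPM against 342, 314 and 320 CPM (0 of 14 higher, 1 lower). The part of cell composition in the P4 result was not tested.

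**Figure D3:**
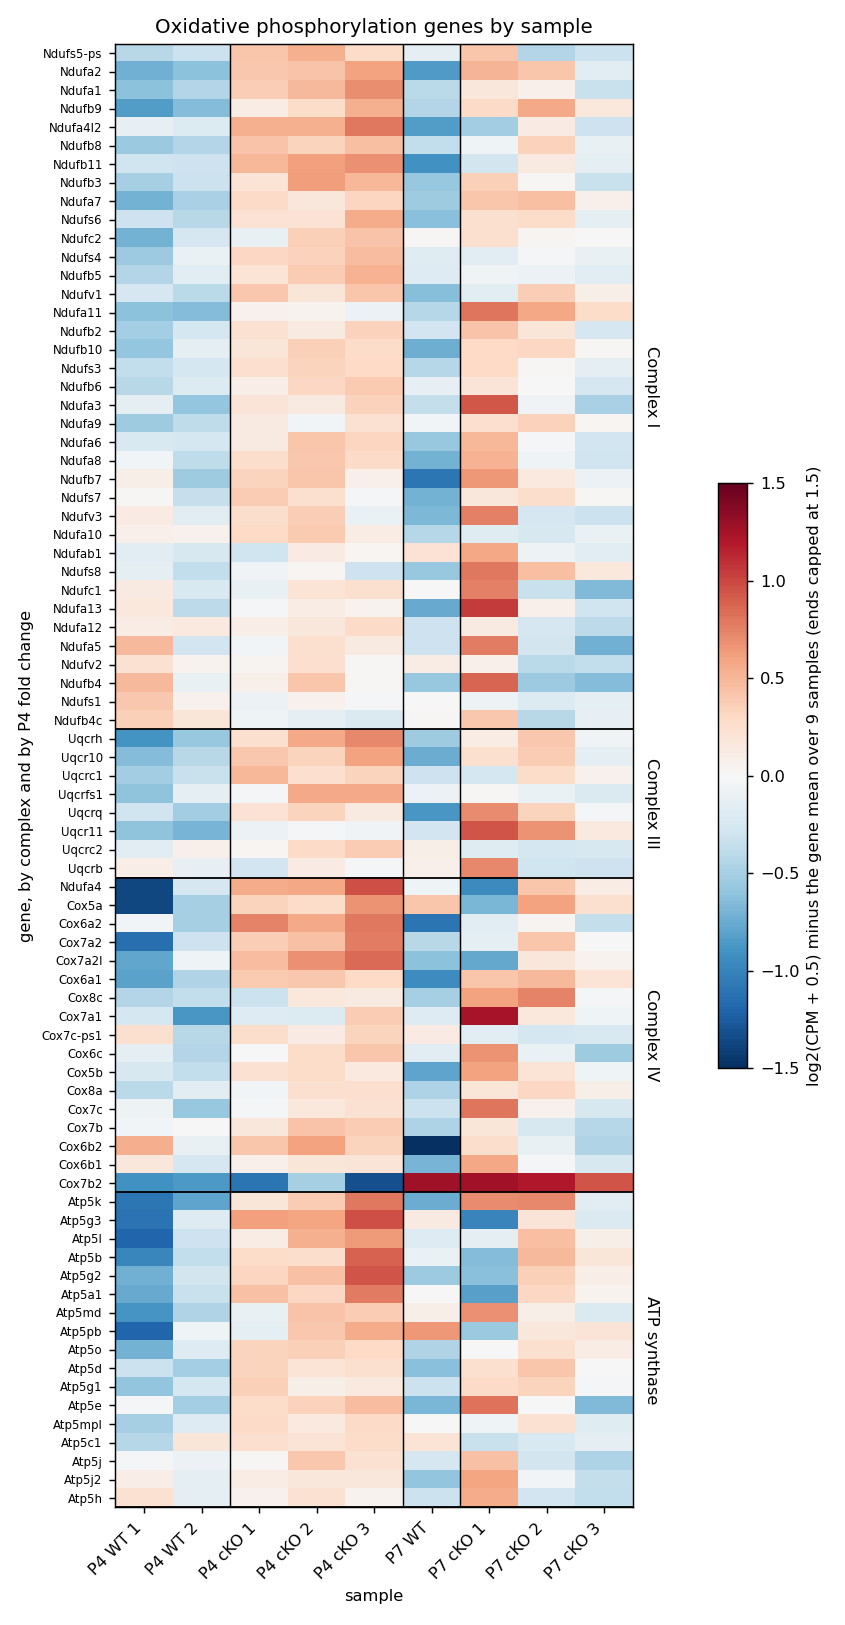
Rows are 79 of the 80 tested genes by complex, ordered by their P4 fold change, and columns the 9 samples. Colour gives log2(CPM + 0.5) minus the mean of the gene over all samples, red above and blue below: the 3 P4 cKO columns are mostly red and P4 WT mostly blue, and Cox7b2 separates the stages instead.

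At P7 the set again lay higher in the libraries labelled cKO, but here the WT side was 1 sample, and the median shift fell close to that of all genes with offsets for gene length. The summed level was 5979 CPM in WT and 8265, 7860 and 6643 CPM in cKO. Higher calls numbered 18 of 80 (22.5%) and lower calls 0, where 7.26% of all tested genes were higher and 9.72% lower. The median was 0.53 for the members and 0.08 for all tested genes, with 67 of 80 members positive. All cKO samples lay above the WT sample for 49 of 80 members (61.3%), against 36.2% of all tested genes. By complex the calls were 9 of 38, 3 of 8, 4 of 17 and 2 of 17, with ATP synthase at a median of 0.35.

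Offsets for exon length per library left 4 of the 18 calls, with 5.51% of all genes higher, and a median of 0.07 against 0.05 for all genes. Offsets for length and GC content left 0 calls, but that fit called 0% of all genes higher and 0.0163% lower, so its count says nothing about the members in particular. It left 6 members at an unadjusted p under 0.05 and a median of 0.09, against 0.03 for all genes. Members are short, with a median exon length of 726.5 bases against 2821 for all tested genes, while their GC content was near the rest (50.9% against 50.7%). At P4 the same length and GC offsets left 18 calls, 13 of them shared with the 26, and a median of 0.54, with 5.11% of all genes higher. With only the P7 samples in the fit edgeR called 0 members and 0% of all genes higher, and 23 members had an unadjusted p under 0.05. DESeq2 called 24 members and limma-voom 19. Leaving out cKO library 2 of P7 gave 3 calls (1.77% of all genes higher), cKO library 2 of P4 gave 11 (3.97%), and cKO library 1 of P7, which stood apart, gave 22 (12.9%).

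Called at both stages were 9 genes, Atp5d, Atp5k, Cox6a1, Ndufa11, Ndufa2, Ndufa7, Ndufb11, Ndufb9 and Uqcr10, which are 34.6% of the P4 calls and 50% of the P7 calls. The comparisons at P4 and P7 share no samples, though they share the estimate of the spread. How many calls the stages share over all tested genes is not given here, so these percentages have no background to be read against. Cox6a1 at P7 had 70.1 CPM in WT and 182, 190.3 and 157 CPM in cKO (log2 fold change 1.33, SE 0.23, edgeR adjusted p 0.00806), and with length and GC offsets its fold change was 0.09. Ndufa11, an accessory subunit of the membrane arm whose promoter is printed above, had 39.4 CPM in WT and 92.9, 79.8 and 64.6 CPM in cKO (1.01, SE 0.24, 0.0193). Ndufa2 had 29.4 CPM in WT and 76.3, 71.5 and 47.6 CPM in cKO (1.15, SE 0.28, 0.0202). In these 3 genes the lowest cKO value was library 3, still above WT.

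Further P7 calls lay in each of the complexes. Ndufb7, a membrane arm subunit, had 38.3 CPM in P7 WT and 129, 90.5 and 77.4 CPM in P7 cKO (log2 fold change 1.37, SE 0.34, edgeR adjusted p 0.0214), with 0.47 at P4. Uqcrq, a small complex III subunit beside cytochrome b, had 35.3 CPM in WT and 106, 82.5 and 64.0 CPM in cKO (1.25, SE 0.28, 0.0159), and Uqcr11 had 39.8 CPM in WT and 94.2, 78.1 and 53.9 CPM in cKO (0.92, SE 0.28, 0.046). Cox5b, which binds zinc in complex IV, had 95.9 CPM in WT and 252, 191 and 159 CPM in cKO (1.06, SE 0.27, 0.0224). Atp5d, the delta subunit of the rotor's central stalk, had 69.3 CPM in WT and 127, 143 and 108 CPM in cKO (0.86, SE 0.22, 0.0259). With length and GC offsets Uqcr11 and Atp5d turned to -0.25 each. Atp5g3, called at P4, did not pass at P7. It had 155 CPM in WT and 70.8, 162 and 122 CPM in cKO (-0.39, SE 0.41, 0.543), its lowest value being the library that stood apart, without which the difference was -0.13 (0.795). Cox7c-ps1, a pseudogene by name with at most 0.632 CPM in any sample, had the lowest P7 value (-0.82, SE 0.72, 0.455).

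The genotype difference itself was compared between stages by the interaction term. No member passed, and 0.0% of all tested genes did (0 of 18419). At an unadjusted p under 0.05 there were 12 members and 4619 of all genes. DESeq2 called 3 members, where it called 4.07% of all genes higher and 5.27% lower, and limma-voom called 0 members and 0.0% of all genes. The lowest value belonged to Atp5g3 (-1.71, SE 0.53, edgeR adjusted p 0.103) and the highest to Cox6b2 (1.26, SE 0.41, 0.108). Neither passed this test, and a p above the threshold does not show that the stages were alike.

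From P4 to P7 the WT set barely moved as a group. The median change was -0.03 for the members and -0.03 for all tested genes. By complex the medians were -0.22 for complex I, 0.12 for complex III, -0.16 for complex IV and 0.20 for ATP synthase. Of 80 members 1 was higher and 1 lower at P7, where 11.8% of all tested genes were higher and 9.97% lower, and without P7 cKO library 1 in the fit 4 were higher and 9 lower (18.0% and 16.5% of all genes). In the samples labelled cKO, 4 members were higher and 11 lower, where 14.5% of all genes were higher and 14.7% lower, and 4 of 80 members are 5%. The cKO median was -0.21, against 0.00 for all tested genes.

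Cox7b2, a testis form of subunit 7b, rose in both genotypes. It lies on chromosome 5 (71442823 to 71548205, minus strand, GRCm38). Its level was 1.92 and 2.00 CPM in P4 WT, 10.4 CPM in P7 WT, 1.62, 2.71 and 1.32 CPM in P4 cKO, and 10.4, 9.92 and 8.24 CPM in P7 cKO. Each P7 sample lay above every P4 sample. The log2 fold change was 2.41 in WT (SE 0.39, edgeR adjusted p 0.00278) and 2.35 in cKO (SE 0.28, 0.0002), and no genotype difference passed at P4 (-0.07, SE 0.32, 0.903), at P7 (-0.13, SE 0.37, 0.831) or in the change over time (-0.06, SE 0.49, 0.954). It passed under all 21 alternatives in WT and all 21 in cKO. Per exon length it made up 4.33% and 4.41% of the summed Cox7b and Cox7b2 level in P4 WT and 24.7% in P7 WT, and 3.18%, 4.40% and 2.25% in P4 cKO and 17.3%, 21.2% and 20.3% in P7 cKO. The general Cox7b did not pass in either genotype, at 78.2 and 80.1 CPM in P4 WT and 58.5 CPM in P7 WT (-0.44, SE 0.27, 0.25). In cKO it had 90.85, 108 and 105 CPM at P4 and 91.7, 68.1 and 59.8 CPM at P7 (-0.47, SE 0.17, 0.0607). Without P7 cKO library 1 the fall of Cox7b in cKO passed (-0.67, edgeR adjusted p 0.00485). The germ cell marker sum was higher at P7, going from 324 and 437 CPM to 1910 CPM in WT and from 314 to 342 CPM to between 1480 and 1660 CPM in cKO, and their part in the change of Cox7b2 was not tested.

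Cox6b2, the testis form of subunit 6b, went the other way in WT. It lies on chromosome 7 (4751792 to 4753094, minus strand, GRCm38). Its level was 49.2 and 31.0 CPM in P4 WT and 11.5 CPM in P7 WT (-1.79, SE 0.36, edgeR adjusted p 0.0069), a fall that passed under all 21 alternatives. In cKO it was 44.7, 51.2 and 42.2 CPM at P4 and 40.2, 30.8 and 24.3 CPM at P7 (-0.54, SE 0.22, 0.0898). The P7 WT value lay below each of the other 8, and at P7 the samples labelled cKO were higher than WT (1.46, SE 0.34, 0.0182). It did not pass with length and GC offsets (0.53, edgeR adjusted p 0.316) or with only the P7 samples (1.43, 0.0915), fits that called 0% of all genes higher. Without P7 cKO library 1 the P7 difference was 1.25 (0.0064) and the fall in cKO passed (-0.74, 0.0133). Its share of the summed Cox6b1 and Cox6b2 level per length was 20.8% to 24.3% over the 5 P4 samples, 11.8% in P7 WT and 16.1% to 18.2% in P7 cKO. The general Cox6b1 had 121 and 90.2 CPM in P4 WT, 65.8 CPM in P7 WT and 161, 105 and 90.4 CPM in P7 cKO, with no call in any comparison (P7 cKO against WT 0.85, SE 0.31, 0.0805).

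The other forms were low. Cox8c had 0.596 and 0.648 CPM in P4 WT, 0.694, 1.16 and 1.13 CPM in P4 cKO, 0.555 CPM in P7 WT and 1.76, 1.99 and 0.972 CPM in P7 cKO, and the P7 difference did not pass (1.5, SE 0.59, edgeR adjusted p 0.103). Its general form Cox8a had 73.8 CPM in P7 WT and 116, 127 and 109 CPM in P7 cKO (0.67, SE 0.22, 0.0588). Spermatid markers summed to 16.4 and 12.6 CPM in P4 WT and to 7.69, 10.9 and 9.19 CPM in P4 cKO. At P7 the sums were 3.04 CPM in WT and 29.9, 12.1 and 9.53 CPM in cKO (5 of 10 higher). Their part in the values of Cox8c and Cox6b2 was not tested. Cox6a2 had 1.39 and 0.884 CPM in P4 WT, 2.78, 2.40 and 2.87 CPM in P4 cKO, 0.416 CPM in P7 WT and 1.25, 1.51 and 1.02 CPM in P7 cKO. It passed at P7 (1.59, SE 0.50, edgeR adjusted p 0.0497), in 7 of 21 alternatives, and its fall in cKO from P4 to P7 also passed (-1.09, SE 0.31, 0.0226). At P4 its difference was 1.24 (SE 0.37, 0.0551). Cox7a1 had 3.31 and 2.00 CPM in P4 WT, 3.50, 3.46 and 5.48 CPM in P4 cKO, 3.50 CPM in P7 WT and 10.3, 4.62 and 3.89 CPM in P7 cKO, with no call. Cox8b had 0 to 8 reads per library and was not tested. Markers of striated muscle summed to 23.5 and 16.0 CPM in P4 WT against 13.4, 19.0 and 13.6 CPM in P4 cKO, and to 6.12 CPM in P7 WT against 13.2, 15.0 and 13 CPM in P7 cKO. Brown fat markers, a list that holds Cox7a1 and Cox8b themselves, summed to 20.5 and 21.3 CPM in P4 WT against 38.7, 40.5 and 42.1 CPM in P4 cKO, and to 28 CPM in P7 WT against 43.4, 40.3 and 34 CPM in P7 cKO. The part of either tissue in these values was not tested.

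**Figure D4:**
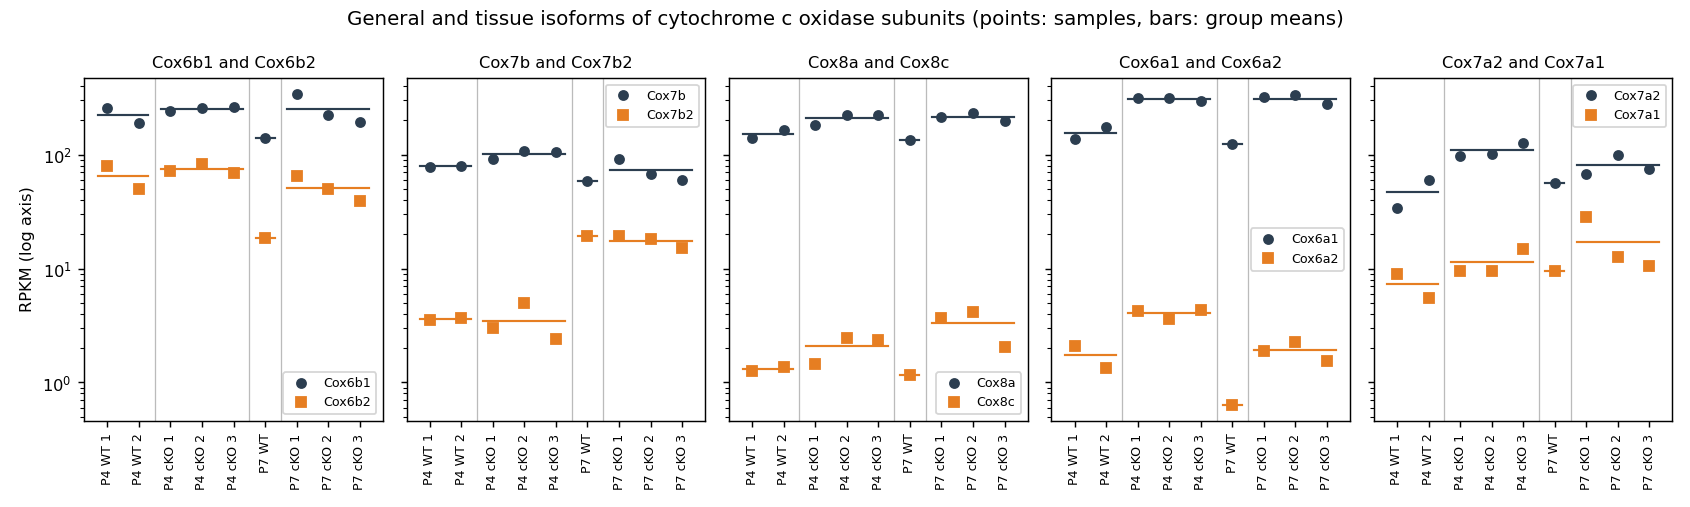
Each panel gives a general form (dark circles) and a tissue form (orange squares) of a complex IV subunit in the 9 samples, in RPKM on a log axis, with bars at group means. Cox7b2 is near 3.5 RPKM at P4 and between 15.2 and 19.2 RPKM at P7 in both genotypes, while Cox6b2 is lowest in P7 WT at 18.7 RPKM.

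In the samples labelled cKO further members changed from P4 to P7. Beside Cox7b2, Uqcr11 (45.8, 47.6 and 46.9 CPM at P4 and 94.2, 78.1 and 53.9 CPM at P7, log2 fold change 0.69, edgeR adjusted p 0.0191), the iron-sulfur subunit Ndufs8 (0.59, 0.0293) and Ndufa11 (0.56, 0.0227) rose. The 11 of 80 that fell are a share near that of all tested genes called lower (14.7%). Among them, Ndufb11 went from 94.2, 101 and 107 CPM to 54.6, 72.9 and 60 CPM (-0.69, SE 0.15, 0.00585) and passed in all 21 alternatives. The P4 and P7 values of Ndufb11 did not overlap. Atp5g3 went from 217, 214 and 276 CPM to 70.8, 162 and 122 CPM (-1.0, SE 0.30, 0.0306), with the lowest value in P7 cKO library 1, and without that library the change was -0.74 (0.0341). Ndufa4l2, known as a hypoxia-induced gene, went from 4.02, 4.01 and 4.90 CPM to 1.67, 2.89 and 2.02 CPM (-0.97, SE 0.28, 0.0219). Cox7a2l (-0.80, 0.0362, and -0.56, 0.0503, without P7 cKO library 1) and the core protein Uqcrc2 (-0.47, 0.034) also fell. With library totals 4 rose and 3 fell (21.2% and 9.87% of all genes), as that scaling moved the median of all genes to 0.18, and without P7 cKO library 3 the counts were 4 and 2 (12.9% and 12.8%). Without P7 cKO library 1 they were 3 and 25 (15.1% and 15.3% of all genes).

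**Figure D5:**
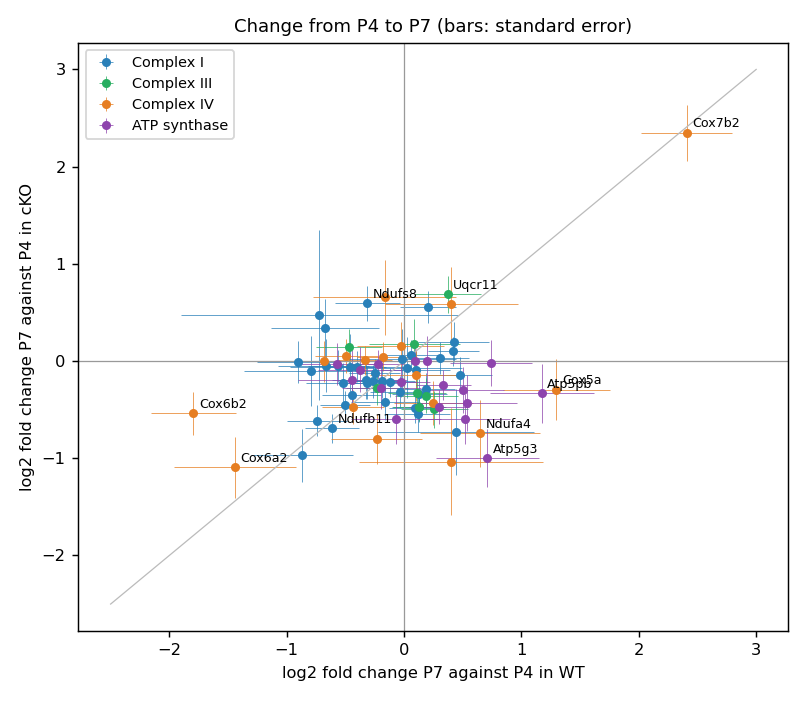
Each point is 1 tested gene, with the log2 fold change from P4 to P7 in WT on the x axis and in cKO on the y axis and bars of 1 standard error. Most genes lie near 0, Cox7b2 lies at 2.41 and 2.35, and Cox6b2 at -1.79 and -0.54.

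Genes around the set were read from lists of the same pathway. Of complex II, which feeds electrons from succinate, 2 of 4 genes were higher at P4 in cKO, Sdhd (1.11, SE 0.24, edgeR adjusted p 0.0241) and Sdhb (0.59, SE 0.16, 0.0426), and 0 of 4 at P7. Cox4i1, the general form of complex IV subunit 4 that the symbol pattern leaves out, had 150.1 and 169 CPM in P4 WT and 340, 320 and 365 CPM in P4 cKO (1.10, SE 0.19, 0.0144) and was also higher at P7 (0.82, SE 0.24, 0.0393). Cyc1, the cytochrome c1 of complex III, was higher at P7 (0.72, SE 0.22, 0.0427). Proteins of the mitochondrial ribosome, which makes the subunits encoded in mitochondria, were higher in 19 of 78 genes at P4 and 17 of 78 at P7 and lower in 0 at either stage, with medians of 0.36 and 0.42, where 4.84% of all tested genes were higher and 4.13% lower at P4 and 7.26% and 9.72% at P7. Mrps34 (1.21 at P4 and 1.11 at P7) and Mrpl28 (1.03 and 1.23) passed at both.

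Genes that build or regulate the complexes had calls in both directions, to be read against the same shares of all genes. Of 45 tested assembly factors 1 was higher (Cox14, 0.72) and 1 lower (Ttc19, -0.77) at P4, and 5 were higher and 3 lower at P7, with medians of 0.21 and 0.06. Of 13 enzymes of the citric acid cycle 0 were called at P4 and 2 were lower at P7 (Dld, -0.83, and Idh3a, -0.65). Among 20 genes of mitochondrial biogenesis, 1 was lower at P4 (Gabpb1, a GABP subunit, -0.68). At P7 2 were higher and 4 lower, among them Yy1 (-0.92), Gabpa (-1.07) and the mitochondrial transcription factor Tfb2m (-0.92). Gabpa had 128 CPM in P7 WT and 52.3, 59.5 and 71.2 CPM in P7 cKO, and between 53.2 and 86.4 CPM at P4. Atp5j, which shares 13.6% of its exon bases with Gabpa, was not called in any comparison (0.20, SE 0.32, at P7).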

How the data were processed

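The authors deposited raw counts of reads for each gene in 1 table, as its header and whole-number values show. The submitters' processing notes name the build GRCm38 (mm10), STAR 2.7.11a, featureCounts (Subread 2.0.6), SAMtools 1.6, Trim Galore 0.6.10, MultiQC 1.14 and FastQC 0.12.1. How strand and multiply mapped reads were treated is not given in the sources. Even numbers made up 67.8% to 80.0% of counts under 50 per library, the pattern of pairs counted by mate, so counting variance is up to 2 times that of independent reads.

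TMM factors and the filterByExpr filter (18419 genes kept) were applied, and genes were tested in edgeR 4.0.16 (R 4.3.3) with the robust quasi-likelihood test, 1 mean per group, over 9 samples with 5 residual degrees of freedom (common biological coefficient of variation 0.228). The P7 WT libraries were summed, and the spread of that single sample was taken from the other groups. Tests were two-sided, with Benjamini-Hochberg adjustment over all tested genes and a threshold of 0.05. Alternatives were RLE factors, library totals, no filter, a minimum count of 50, DESeq2 1.42.0, limma-voom (limma 3.58.1), only the groups compared, 10 separate libraries, the replicate number as a block, offsets for exon length alone or with GC content (smooth curves per library, mgcv 1.9.3, GC of GRCm38 transcripts for 97.9% of genes and 82 of 83 members), and each library left out. The scripts were tested on simulated data. A log2 change of 1 was recovered for 32 of 100 genes at P4 and 12 of 100 at P7. For a log2 change of 2 the numbers were 90 and 88 of 100. Changes of about 1 were thus often missed in that simulation.

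Members, gene lists and marker lists were chosen with earlier results of these data known, and the promoter motifs are textbook motifs chosen likewise. Values per sample are given for the tissue forms of complex IV and their general forms, for up to 3 called members with the smallest p per complex and comparison, and for the highest and lowest member of each comparison. 1 such member is left out of the text. The core subunits, Uqcrb, Cox5a, Ndufs8 and the Atp5g genes were chosen after their values were seen. Genes outside the set are those past the threshold with the smallest p of each list, up to 3, and Atp5j was named for its overlap with Gabpa.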

Additional observations from a re-analysis of the deposited data

How the results depend on the processing

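Counts of called members moved with the settings as follows, and the cause was not tested unless stated. The share of all genes called moved too. With 10 libraries 20.7% of all genes were higher and 18.5% lower at P7, 20.3% and 21.0% for WT over time, and 8.46% and 9.18% for the interaction. DESeq2 called 13.5% higher and 13.5% lower for WT over time. Only the groups compared gave 9.96% and 9.1% at P4, and length offsets 14.1% and 17.1% for cKO over time. For cKO against WT at P4 (26), library totals gave 13 and only the groups compared 44, and leaving out 1 library gave 0 to 47 (0 without P4 WT 1, P4 cKO 2 or P4 cKO 3, 12 without P4 cKO 1, 14 without P4 WT 2, 17 without P7 cKO 3, 47 without P7 cKO 1). For P7 (18), only the groups compared gave 0 (4 samples in that fit), 10 libraries 35, length offsets 4, length and GC offsets 0, and leaving out 1 library 3 to 22 (3 without P7 cKO 2, 11 without P4 cKO 2). For WT over time (2), library totals, a minimum count of 50 and length and GC offsets gave 4 each, DESeq2 and only the groups compared 6 each, 10 libraries 11, and leaving out 1 library 2 to 13 (13 without P7 cKO 1, 6 without P4 WT 2, 4 without P7 WT 1). For cKO over time (15, mostly lower), library totals gave 7 with more higher than lower, length offsets and length and GC offsets 23 each, and leaving out 1 library 4 to 28 (28 without P7 cKO 1, 9, 5 and 4 without P4 cKO 1, 2 and 3, 8 without P7 cKO 2, and 6, more higher than lower, without P7 cKO 3). For the interaction (0), DESeq2 gave 3, 10 libraries 5, and leaving out 1 library 0 to 2 (1 without P4 WT 2, 2 without P7 cKO 1). With length and GC offsets Atp5d and Uqcr11 at P7 turned to -0.25 each. Over the named genes and settings, 647 values kept their side of the threshold, 143 lost it, 2 gained it and 2 reversed.

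The replicate number as a block (10 libraries) gave 43 at P4, 38 at P7, 16 for WT over time, 22 for cKO over time and 11 for the interaction. Of all genes that fit called 8.5% higher and 7.02% lower at P4, and 21.5% and 20.7% at P7. Its shares were 22.3% and 22.0% for WT over time, 18.4% and 19.8% for cKO over time, and 11.2% and 13.3% for the interaction. The numbers were not taken as pairing the samples, as not every pair was over 0.1: same-numbered P4 libraries correlated at 0.174 and -0.112, P4 and P7 cKO libraries at 0.035, -0.186 and 0.159, and P4 WT and P7 cKO libraries at 0.341 and 0.26. The value of 0.341 is for the libraries numbered 1, and it involves P7 cKO library 1, which stood apart. The fit of only the groups compared was not run for the interaction, which uses all groups. WT had 1 sample at P7 and 2 at P4, which limits every comparison, and depth limits Cox8b (0 to 8 reads per library) and the other members near 0 reads.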

Other observations

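Glycolysis, the other main route to ATP, was read from 16 genes for its enzymes. Of these 2 had higher levels in P4 cKO, Ldhb (log2 fold change 0.90, SE 0.18, edgeR adjusted p 0.0206) and Tpi1 (1.43, SE 0.37, 0.0409), and 1 was higher at P7, Gpi1 (0.82, SE 0.23, 0.0339), where 4.84% and 7.26% of all tested genes were higher. The medians of the list were 0.58 and 0.54, close to those of the oxidative phosphorylation genes, and the difference between the lists was not tested. From P4 to P7 in cKO Aldoc rose (1.6, SE 0.23, 0.000464) and Tpi1 fell (-1.04, SE 0.32, 0.0318).

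Of 7 metabolic genes known as germ cell forms, 3 were higher and 1 lower at P7 than at P4 in WT (11.8% and 9.97% of all genes), and 3 were higher and 0 lower in cKO (14.5% and 14.7%). Cyct, the testis cytochrome c, had 5.23 and 4.13 CPM in P4 WT and 14.7 CPM in P7 WT (1.66, SE 0.33, edgeR adjusted p 0.0064), and rose in cKO as well (2.23, SE 0.24, 9.059e-05). Pdha2, a pyruvate dehydrogenase subunit, rose by 3.27 in WT (SE 0.42, 0.00102) and 3.67 in cKO (SE 0.32, 2.633e-05). Slc25a31, a germ cell ADP/ATP carrier, had 9.83 and 24.4 CPM in P4 WT and 115 CPM in P7 WT (2.74, SE 0.42, 0.00256), and rose in cKO (2.04, SE 0.30, 0.000783). Ldhc, the testis lactate dehydrogenase, went the other way in WT, from 4.63 and 1.94 CPM to 0.243 CPM (-3.74, SE 0.99, 0.0234), and at P7 the samples labelled cKO were higher, at 4.68, 1.66 and 1.26 CPM (3.36, SE 0.96, 0.0367). Spermatid markers summed to 16.4 and 12.6 CPM in P4 WT and 3.04 CPM in P7 WT. In cKO the sums were 7.69, 10.9 and 9.19 CPM at P4 and 29.9, 12.1 and 9.53 CPM at P7. Their part in the values of Ldhc was not tested. Pgk2 (-3.64, 0.0708), Ldhal6b (-1.17, 0.368) and Gapdhs (-0.01, 0.993) did not pass in WT.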
